A study of Homo sapiens with 6 samples.

Results

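Circular RNAs (circRNAs) made from genes of the ubiquitin system were examined in BEAS-2B, a line of immortalised cells from human bronchial epithelium. Members were taken by the name of the host gene, the gene whose exons or introns the circle holds. A circRNA was included when its only listed host had a name beginning with UBE2, UBE3, UBR, TRIM, RNF, CUL, HERC, HECTD, FBXO, FBXW, FBXL, KLHL or USP, or was MIB1, CBL, ITCH, NEDD4, NEDD4L or HUWE1. This gave 427 circRNAs from 135 host genes, out of 9857 circRNAs in all and out of 3742 genes that were the only host of a circRNA. NEDD4 and NEDD4L were not among the listed hosts. A rule by name also takes in relatives that do other work: UBE2V2 lacks the active cysteine, USPL1 removes SUMO, USP39 is a splicing factor and USP6NL is a GTPase-activating protein.

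The study compared BEAS-2B cells kept at 2.0 µM cadmium for 20 weeks (3 libraries) with BEAS-2B cells kept at 0.0 µM over the same time (3 libraries). Sequencing followed depletion of ribosomal RNA and a digest with RNase R, which removes linear RNA, and each circRNA was counted by the reads across its back-splice junction, where a later exon runs on into an earlier one. Nothing in the labels ties the replicates to separate cultures, and the p-values thus cover only the spread among these libraries, possibly a technical one. Fewer cells making a circRNA and less of it per cell cannot be told apart in such bulk libraries.

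Ubiquitin is a small protein that is attached to other proteins in a relay of activating (E1), conjugating (E2) and ligating (E3) enzymes, and is taken off again by deubiquitinases. Chains of ubiquitin send proteins to the proteasome or change where they go and what they bind. RING ligases hold the E2 against the substrate, HECT ligases take the ubiquitin onto their own cysteine first, and cullins are scaffolds on which F-box and BTB-Kelch (KLHL) proteins present substrates.

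The junctions of 4 genes that the results return to are shown here, since their sequences show how circles of a gene share an end. In each line the last 15 bases of the downstream exon are in lower case and the first 15 bases of the upstream exon are in capitals, read 5′ to 3′ on the strand of the gene from GENCODE 29 transcripts on GRCh38. The leading circles of MIB1, CBL, TRIM37 and USP3 are given, with further MIB1, CBL and TRIM37 circles for comparison.
MIB1 hsa_circ_0000835, exons 2 to 6 of 21, chr18:21765772-21779685, plus strand: tccaagtggcaatagGCATCAAGCATGATG
MIB1 hsa_circ_0000836, exons 2 to 12, chr18:21765772-21819646, plus strand: aaggggaaatcccagGCATCAAGCATGATG
MIB1 hsa_circ_0008741, exons 4 to 6, chr18:21773624-21779685, plus strand: tccaagtggcaatagGTAACAGAAATCCAG
MIB1 hsa_circ_0008190, exons 5 to 6, chr18:21778103-21779685, plus strand: tccaagtggcaatagTCTGATCTGAAATGT
CBL hsa_circ_0000362, exons 4 to 5 of 16, chr11:119273868-119274953, plus strand: tcacaaacctggcagGACAATAGTCCCTTG
CBL novel_circ_0002163, exons 3 to 5, chr11:119271735-119274953, plus strand: tcacaaacctggcagGCGAAACCTAACCAA
TRIM37 hsa_circ_0004090, exons 5 to 9 of 24, chr17:59070823-59084089, minus strand: accagactttaccagATGTGAAAATCACCA
TRIM37 hsa_circ_0002809, exons 20 to 24 of 25, chr17:58999381-59017424, minus strand: tgaaaatagtggaagCCACAAATAAGAAGA
USP3 hsa_circ_0002138, exons 2 to 8 of 15, chr15:63532647-63563008, plus strand: tatgccaaactttagTGTGCCGGTCCAACA

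The first pair of MIB1 lines has the same capitals, because both circles start at exon 2, and differs in the lower case, because they end after different exons. The lower case of the circles of exons 2 to 6, 4 to 6 and 5 to 6 is the same, because all of them end after exon 6. The CBL pair likewise shares the end of exon 5 and differs in where it starts.

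Libraries held 133185 to 225769 junction reads, of which 5531 to 9850 lay on member circRNAs. Junction reads count 2 times in the weighted junction share, which sets them against that amount plus the other reads of the locus. Over all circRNAs with such other reads in every library it was 46.0% and 48.8% in control replicates 1 and 3 against 29.1% to 31.7% in the other 4 libraries. Control replicates 1 and 3 thus stood apart in this measure. Of 10 epithelial marker genes, 0 were listed as hosts of a circRNA, and of 10 mesenchymal ones ZEB1 and BNC2 were, so the circRNA table alone does not check the labelled cell type. Those 2 genes took 0.0508% to 0.0593% of junction reads in controls and 0.0315% to 0.0420% with cadmium, while 0 of 5 leukocyte and 0 of 5 endothelial markers were listed. The part of these shifts in the results below was not tested.

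Member circRNAs took much the same share of each library. Control libraries held 4.36%, 4.29% and 4.29% of their junction reads on members, and cadmium libraries 4.15%, 4.27% and 3.89%. All 3 cadmium values lay below all 3 control values, cadmium replicate 2 by very little and cadmium replicate 3 by the most. The means were 4.31% ± 0.0434 and 4.10% ± 0.195 (SD, n = 3 each), a difference of -0.208 percentage points. Without cadmium replicate 3 it was -0.101.

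The weighted junction share of the 268 members with other reads of the locus in every library was 52.5%, 37.2% and 54.5% in controls and 42.9%, 42.4% and 38.4% with cadmium. It was above the value for all circRNAs in every library. Control replicates 1 and 3 were high for members as they were for all circRNAs, and control replicate 2 lay below all 3 cadmium libraries.

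**Figure D1:**
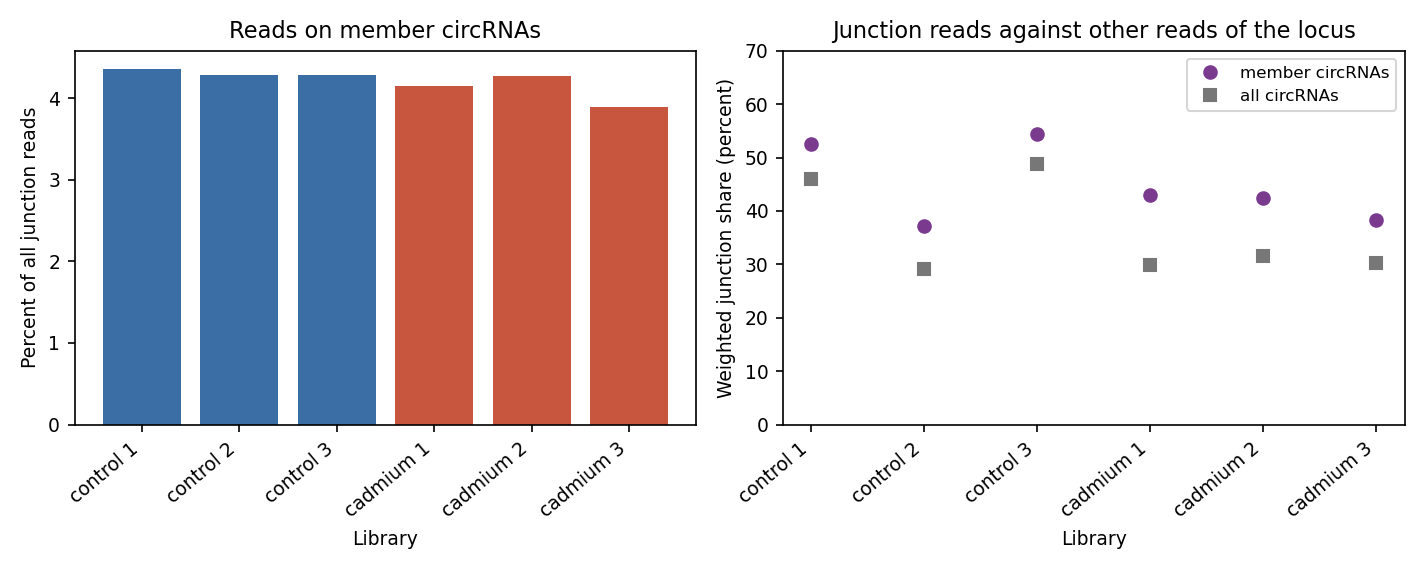
Left, percent of each library's junction reads on the 427 member circRNAs (bars start at 0, 1 bar per library, blue for control and red for cadmium), from 3.89% in cadmium replicate 3 to 4.36% in control replicate 1. Right, weighted junction share in percent per library for 268 members (circles) and 6078 circRNAs overall (squares), where control replicates 1 and 3 are the highest of 6 for both sets.

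In structure, the members lay close to other circles in each measure taken, with no test made. Of the 427, 413 were exonic and 14 intronic. The median spliced length was 387 bases against 380 for the other circRNAs with 1 host, the median genomic span 6581 against 6476 bases, and the median number of exons 3 in both sets. Of 394 members with both ends on the exons of a GENCODE transcript, 31.5% began at exon 2 (28.8% of others), 14.2% held the annotated start codon (13.2% of others) and 81.7% lay wholly in coding sequence (82.7% of others). Single-exon circles made up 11.1% of exonic members and 12.0% of exonic others.

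Ubiquitin genes gave on average 3.16 circRNAs a host, against 2.53 for other hosts. TRIM37 gave 20 and MIB1 15, while 46 of the 135 genes gave 1. Of the members, 41.5% shared their acceptor, the upstream end of the circle, with another listed circRNA of the gene, and 36.8% shared their donor, the downstream end, against 38.5% and 34.3% of other circRNAs.

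A few hosts held much of the signal. RNF13, MIB1 and FBXW7 led, and the 10 leading hosts took 38.5% of the 40415 member reads, while the median host had 125 reads over all 6 libraries. Among 89 hosts with 2 or more circRNAs, the leading circle held a median of 57.1% of the host's reads, and over 50% in 60 of them. In TRIM37, the host with most circRNAs, it held 14.2%.

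The design asks whether these circles differ after 20 weeks of cadmium. Reads were summed per host, and 114 of the 135 hosts passed the filter on low counts. The 21 others had 6 to 34 reads each over 6 libraries and were not tested. No member host passed an adjusted p of 0.05 in edgeR (lowest adjusted p = 0.186, MIB1), against 0.233% of all 3008 hosts tested. DESeq2 and limma also gave 0, with lowest adjusted p of 0.0656 and 0.194.

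At an unadjusted p under 0.05, 12 member hosts were counted, against 12.5% of all hosts tested: 2 were higher with cadmium (background 5.92%) and 10 lower (background 6.58%). As shares of the tested members these are 10.5%, 1.75% and 8.77%. The first is close to the background. Without control replicate 1 the count was 7, with 3 higher and 4 lower. With the junction to non-junction ratio of the library as a covariate the count was 17, with 11 higher and 6 lower. That ratio, in log2, was -2.28 in control replicate 2 and -2.23 to -2.11 with cadmium, but -1.23 and -1.07 in control replicates 1 and 3. Fits with this covariate, here and below, thus compare cadmium mainly with control replicate 2. They cannot settle whether the lean toward lower values holds.

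The 3 control and 3 cadmium values did not overlap in 22 of the 114 hosts (19.3%), the same as the 19.3% of all hosts tested. Of these, 9 were higher with cadmium (7.89% of members tested, background 9.31%) and 13 lower (11.4%, background 10.0%). The median log2 fold change, cadmium over control, was -0.04 for member hosts and 0.00 for all hosts, and 55.3% of member hosts had a negative value against 49.97% of all. For single circles, 281 of 427 were tested and 0 passed (lowest edgeR adjusted p = 0.390; background 0.0809%), with 0 also in DESeq2 and limma.

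At an unadjusted edgeR p under 0.05 there were 18 member circRNAs, or 6.41% (background 8.3%). Of these, 2 were higher (0.712% of members tested, background 4.09%) and 16 lower (5.69%, background 4.21%). The groups did not overlap in 40 (background 15.4%), 14.2% of the members tested, with 15 higher (5.34%, background 7.41%) and 25 lower (8.9%, background 7.94%). The authors' deposited table marks 19 members at its unadjusted p under 0.05, with 4 higher (0.937%, background 2.38%) and 15 lower (3.51%, background 2.75%). The lowest adjusted p that it gives a member is 0.876. All values that follow are therefore levels and differences that did not pass the adjusted threshold.

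**Figure D2:**
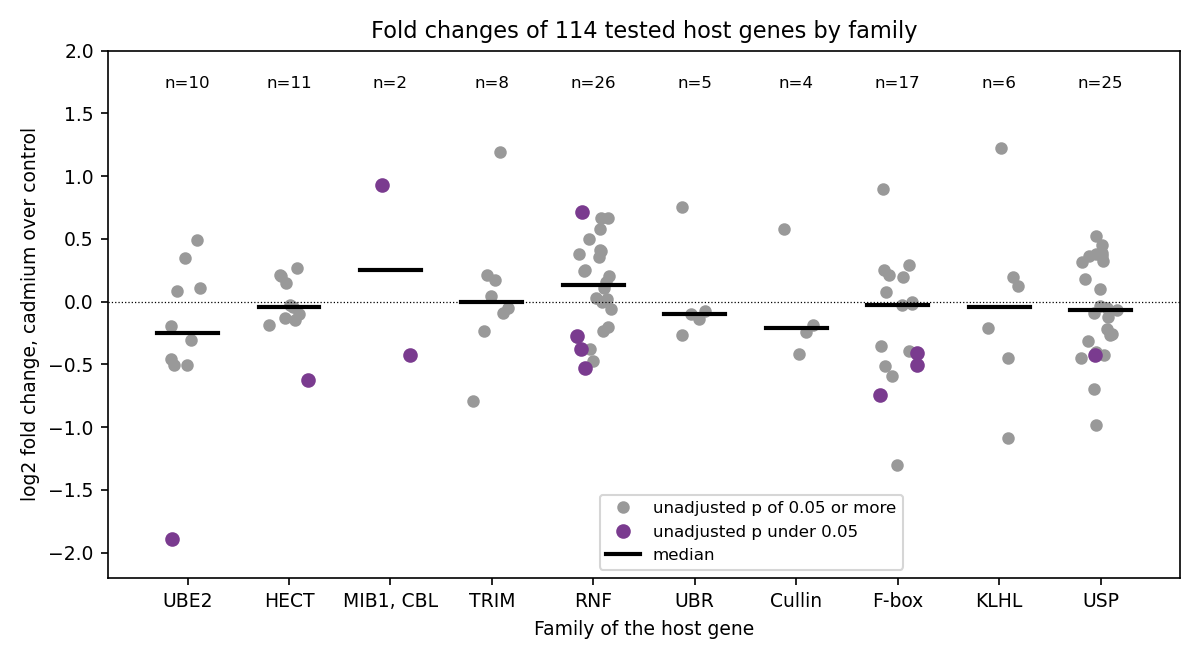
The log2 fold change (cadmium over control, y axis) of each of the 114 tested hosts by family (x axis), 1 point per gene, with the family's median as a black line and the number of genes as n. Purple points, 12 in all, had an unadjusted edgeR p under 0.05, and 10 of them lie below 0.

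Levels below are in CPM, the usual scaling of counts to library size, here of junction reads to the TMM-scaled library total. Each circle is counted at 1 junction, so a level carries no gene length, and a host's level is the sum over its circles. Host sums and single circles were scaled in separate fits, so a gene with 1 circle has slightly different values in the 2 fits. For the counts per family at an unadjusted edgeR p under 0.05, the background over all hosts was 5.92% higher and 6.58% lower. With 2 to 26 hosts tested in a family, such counts are too small to be read as a result about a family.

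E2 enzymes carry the activated ubiquitin. The 13 UBE2 hosts gave 26 circRNAs, and of 10 tested 4 had positive and 6 negative log2 fold changes (median -0.25), with 0 higher and 1 lower at unadjusted p under 0.05. Their summed share of junction reads averaged 0.408% ± 0.0266 in the controls and 0.372% ± 0.0455 with cadmium (mean ± SD of 3 libraries).

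UBE2G1, an E2 that works with cullin ligases, was the most abundant of them. Its host level was 1330, 1250 and 1675 CPM in controls and 1399, 1255 and 1075 CPM with cadmium, and the groups overlapped (log2 fold change -0.19, edgeR adjusted p = 0.63). Leaving out control replicate 3 gave -0.07, cadmium replicate 3 -0.09 and cadmium replicate 1 -0.30, and it was -0.02 with the junction to non-junction covariate. Its leading circle, hsa_circ_0003239 (exons 3 to 5 of 6), held 61.3% of its reads.

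UBE2K, an E2 that builds chains for the proteasome, had 702, 566 and 656 CPM in controls and 634, 758 and 697 CPM with cadmium. These host levels overlapped (log2 fold change 0.11, edgeR adjusted p = 0.799). A minor circle of UBE2K had a larger positive value. The circle hsa_circ_0069492, exons 2 to 6 of 7 (chr4:39737420-39777810), had 34.1, 39.3 and 39.8 CPM in controls and 64.2, 86.5 and 67.8 CPM with cadmium. The groups did not overlap (log2 fold change 0.94, edgeR adjusted p = 0.618). It held 7.6% of the UBE2K reads.

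HECT ligases were the 15 hosts named UBE3, HECTD or HERC, with HUWE1 and ITCH, and gave 72 circRNAs. Of 11 tested, 4 had positive and 7 negative values (median -0.04), with 0 higher and 1 lower at unadjusted p under 0.05. Their summed share averaged 0.596% ± 0.0247 in the controls and 0.579% ± 0.0135 with cadmium (mean ± SD of 3 libraries).

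UBE3A, the ligase first known as E6-associated protein, was the 1 lower host. Its level was 524.4, 535.9 and 477.7 CPM in controls and 355.5, 413.4 and 234.6 CPM with cadmium. All cadmium values lay below all control values, and cadmium replicate 3 was the lowest (log2 fold change -0.63, SE 0.21, unadjusted p = 0.0100, edgeR adjusted p = 0.238). Without cadmium replicate 3 the log2 fold change was -0.41, a smaller difference in the same direction. With the junction to non-junction ratio as a covariate it was -0.67 (edgeR adjusted p = 0.444).

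Of 5 UBE3A circles, hsa_circ_0005147 (chr15:25405461-25415842, exons 3 to 8 of 17) held 69.6% of the reads. It had 424, 354 and 352 CPM in controls and 225, 283 and 176 CPM with cadmium, with no overlap (log2 fold change -0.73, SE 0.24, unadjusted p = 0.00801, edgeR adjusted p = 0.432). Its share of the gene's reads averaged 70.3% ± 7.60 in the controls and 66.6% ± 5.68 with cadmium (mean ± SD of 3 libraries), and the groups overlapped.

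HUWE1, a very large ligase whose substrates include MCL1, was the most abundant HECT host. Its level was 1770, 1437 and 1675 CPM in controls and 1584, 1493 and 1408 CPM with cadmium, and the groups overlapped (log2 fold change -0.13, edgeR adjusted p = 0.725). The HUWE1 value ran from -0.21 without control replicate 2 to -0.08 without control replicate 1, and was 0.02 with the covariate. Its 12 circles had starts from exon 2 to exon 53, and hsa_circ_0007817, exons 21 to 22 of 83 (chrX:53614534-53615835, minus strand), held 35.2% of the reads. The junction of that circle, the leading one of the most abundant HECT host, is written as above.
HUWE1 hsa_circ_0007817: tgagcctaatcagcaGGGATACTGCATCCA

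HERC4, which joins a HECT domain to RCC1-like repeats, had 918, 968 and 905 CPM in controls and 920, 1010 and 808 CPM with cadmium (log2 fold change -0.03, edgeR adjusted p = 0.951). Its 12 circles had 2 main starts, one at exon 4 with 41.3% of the reads and one at exon 9 with 41.0%. The exon 9 start took 46.4%, 47.7% and 47.2% of HERC4 reads in controls and 25.2%, 41.7% and 33.1% with cadmium, so the groups did not overlap although the sum over all circles did. These shares were looked up after the values were seen and were not tested.

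A minor HERC4 circle, hsa_circ_0006263 (chr10:68038093-68067217), had 34.1, 47.2 and 19.9 CPM in controls and 80.3, 62.9 and 61.1 CPM with cadmium (log2 fold change 1.01, edgeR adjusted p = 0.636; 0.54 with the covariate). No GENCODE transcript has both of its ends, and its listed spliced length of 22891 bases is the longest of any member, so its exons are not known here. HECTD2, a HECT ligase seen as a single circle (exons 2 to 5 of 21), had 744, 863 and 573 CPM in controls and 634, 735 and 1036 CPM with cadmium, with wide overlap (log2 fold change 0.15, edgeR adjusted p = 0.782).

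MIB1 and CBL are RING ligases with well known substrates, and their summed levels had differences of opposite sign. MIB1 ubiquitinates ligands of the Notch receptor so that they are endocytosed. Its summed level was 3315, 3096 and 3420 CPM in controls and 2411, 2404 and 2522 CPM with cadmium. The means were 3277 ± 165 and 2446 ± 66.3 CPM (SD, n = 3 each), and all cadmium values lay below the lowest control (log2 fold change -0.42, SE 0.11, unadjusted p = 0.00141, edgeR adjusted p = 0.186).

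This was the smallest p of any member host. The log2 fold change stayed between -0.46 and -0.40 when libraries were left out in turn. The edgeR adjusted p then ran from 0.0823 without cadmium replicate 3 to 0.504 without control replicate 1. With the junction to non-junction ratio as a covariate the log2 fold change was -0.35 (edgeR adjusted p = 0.444). DESeq2 gave -0.42 with an adjusted p of 0.0656.

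MIB1 gave 15 circles, all exonic. The 8 that start at exon 2, the start shared by the first pair of sequence lines above, held 82.2% of the gene's reads. That start took 85.6%, 82.7% and 82.9% of MIB1 reads in controls and 80.8%, 80.3% and 77.5% with cadmium, so each cadmium library lay below each control. The leading circle of exons 2 to 6, hsa_circ_0000835, held 67.4%.

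The leading circle had 2362, 2138 and 2533 CPM in controls and 1758, 1612 and 1621 CPM with cadmium. The groups did not overlap (log2 fold change -0.50, SE 0.13, unadjusted p = 0.0024, edgeR adjusted p = 0.390), and leaving out libraries in turn gave -0.57 to -0.45. With the covariate the log2 fold change was -0.38 (edgeR adjusted p = 0.660). The circles of exons 4 to 6 and 5 to 6, which share the exon 6 end but not the exon 2 start, had log2 fold changes of -0.01 (SE 0.46) and 0.01 (SE 0.29).

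The longer circle of exons 2 to 12, hsa_circ_0000836, had 214, 244 and 139 CPM in controls and 88.3, 181 and 102 CPM with cadmium (log2 fold change -0.69, SE 0.34, edgeR adjusted p = 0.631). Of the 11 MIB1 circles tested, 8 had negative and 3 positive values. A pair of the positive ones, hsa_circ_0007504 (0.64) and hsa_circ_0047123 (0.99), did not overlap between groups. The sign of the value thus differed among circles of the gene, none of which passed the adjusted threshold. The differences between circles of MIB1 were not tested.

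**Figure D3:**
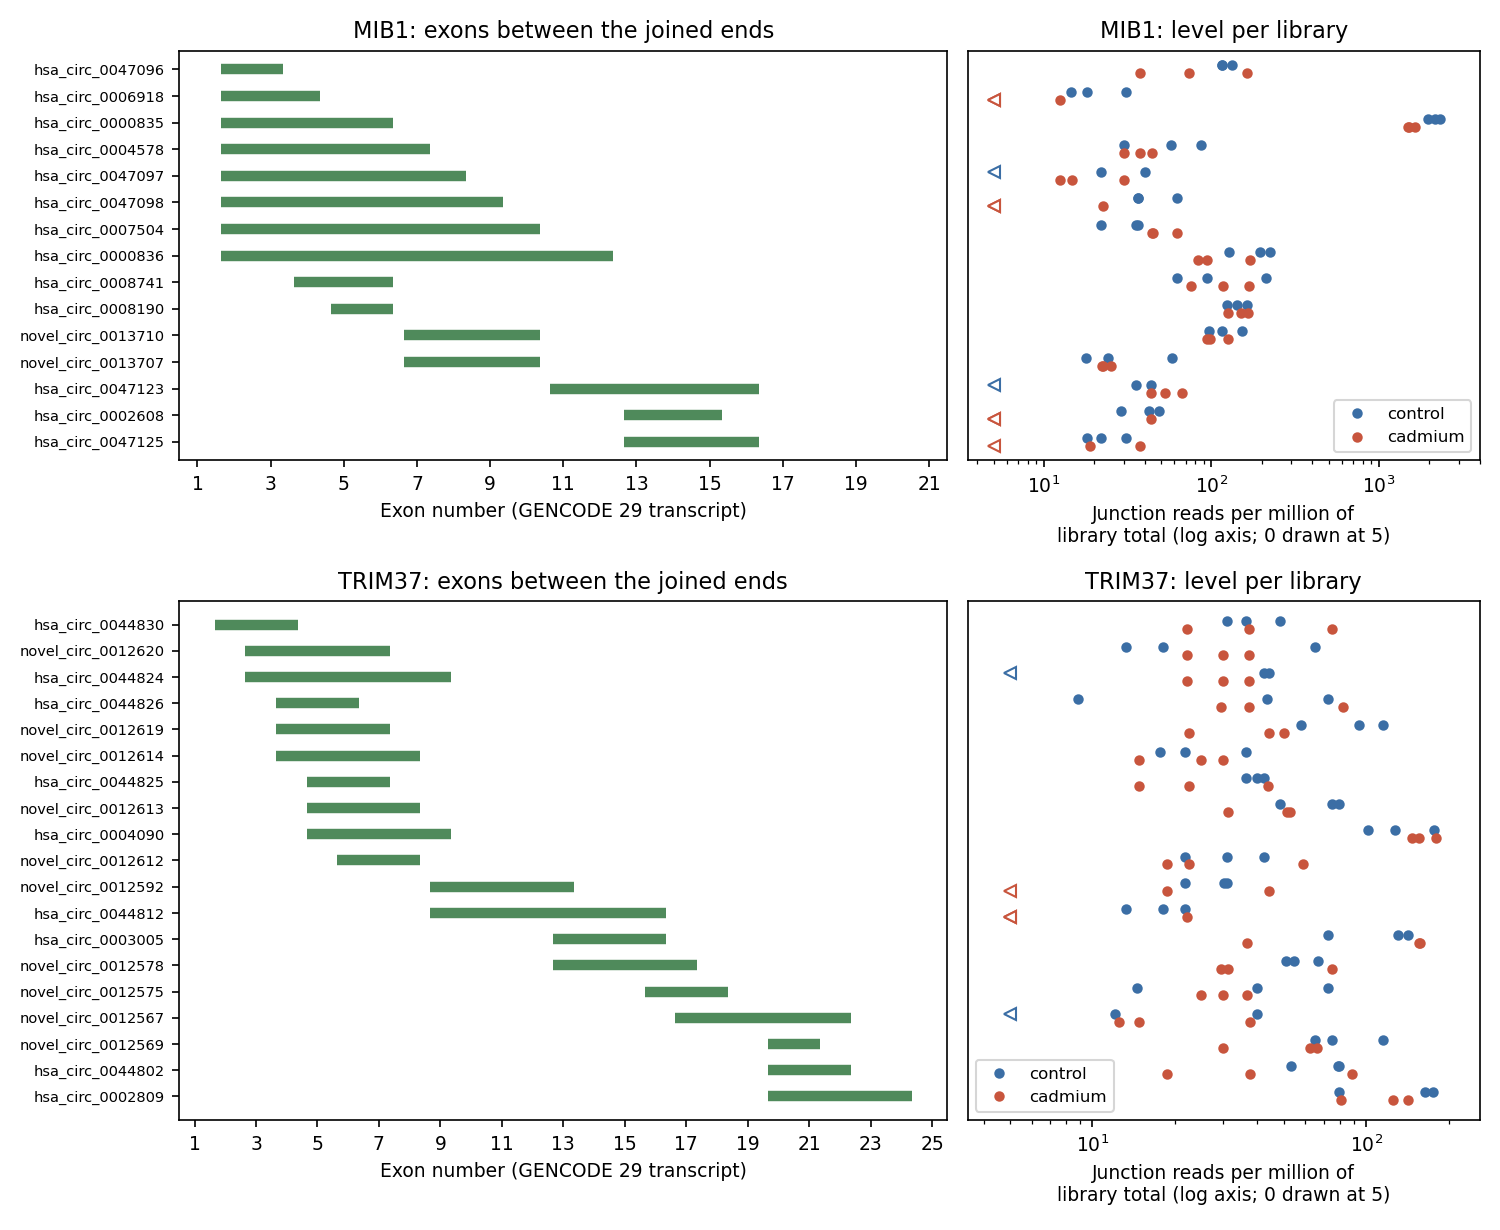
Left, the exons between the joined ends of the circles of MIB1 (15 circles) and TRIM37 (19 of 20 circles) that have both ends in a GENCODE 29 transcript. Exons are numbered by that transcript. Right, the level of each circle in each library (CPM of the library total, log axis, triangles for libraries at 0), where hsa_circ_0000835 stands far above the other MIB1 circles, whereas no TRIM37 circle leads.

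CBL ubiquitinates activated receptor tyrosine kinases, which sends them to lysosomes. Its 3 circles summed to 131, 59.5 and 178 CPM in controls and 224, 245 and 248 CPM with cadmium. All cadmium values lay above all control values, and the controls were spread widely, with replicate 2 the lowest (log2 fold change 0.93, SE 0.32, unadjusted p = 0.0121, edgeR adjusted p = 0.247). Without control replicate 2 the log2 fold change was 0.64, and with the junction to non-junction ratio as a covariate it was 1.90 (edgeR adjusted p = 0.192).

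The leading CBL circle, hsa_circ_0000362 of exons 4 to 5, had 73.0, 39.3 and 113 CPM in controls and 145, 142 and 217 CPM with cadmium (log2 fold change 1.14, SE 0.39, unadjusted p = 0.0102, edgeR adjusted p = 0.432; 1.99 with the covariate). Its weighted junction share, a readout within the locus, was 56.6%, 29.4% and 69.4% in controls and 67.9%, 69.2% and 80.0% with cadmium. Control replicate 2, low in the share of all circRNAs, was low here too, and control replicate 3 lay within the cadmium range, so this readout overlapped. The circle of exons 3 to 5, novel_circ_0002163, had only 3 to 10 reads a library (log2 fold change 0.63, edgeR adjusted p = 0.818).

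TRIM proteins are RING ligases with B-box and coiled-coil domains. The 12 TRIM hosts gave 36 circRNAs, and of 8 tested 4 had positive and 4 negative values (median 0.00, 0 at unadjusted p under 0.05). TRIM37, a ligase that limits centriole assembly, gave more circles than any other member host and had 1217, 990 and 1318 CPM in controls and 1128, 949 and 938 CPM with cadmium. The groups overlapped (log2 fold change -0.23, SE 0.15, edgeR adjusted p = 0.564). That value was -0.15 without control replicate 3 and -0.02 with the junction to non-junction covariate.

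Reads of TRIM37 were spread over circles from both ends of the gene. Starts at exon 20 took 24.7% of them, at exon 5 22.9% and at exon 13 16.1%. The leading circle of exons 5 to 9, hsa_circ_0004090, had 195, 110 and 139 CPM in controls and 193, 157 and 170 CPM with cadmium, which overlapped (log2 fold change 0.19, edgeR adjusted p = 0.897). Single libraries set that level difference: leaving out control replicate 2 gave 0.02, cadmium replicate 1 0.10 and control replicate 1 0.48, and the covariate gave 0.53.

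As a share of TRIM37 reads, that circle took 15.4%, 10.5% and 10.1% in controls and 16.4%, 16.1% and 17.4% with cadmium, with no overlap. The difference in means was 4.62 percentage points, and it ran from 3.69 to 6.31 when libraries were left out in turn. Of 13 TRIM37 circles tested, 9 had negative and 4 positive values, and novel_circ_0012619 (exons 4 to 7) had the lowest, with 13, 13 and 19 reads in controls and 3, 6 and 8 with cadmium (log2 fold change -1.16, edgeR adjusted p = 0.515). TRIM33, a ligase that acts on SMAD4, overlapped between groups, with 618, 662 and 682 CPM in controls and 626, 651 and 619 CPM with cadmium (log2 fold change -0.05).

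RNF hosts, 27 genes that mostly encode RING ligases, gave 65 circRNAs. Of 26 tested, 16 had positive and 10 negative values (median 0.13), with 1 higher and 3 lower at unadjusted p under 0.05. Their summed share averaged 0.857% ± 0.0286 in the controls and 0.832% ± 0.0674 with cadmium (mean ± SD of 3 libraries).

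RNF13, a membrane-bound ligase of endosomes and lysosomes, was the most abundant member host. It had 3666, 3588 and 3248 CPM in controls and 2744, 3384 and 2581 CPM with cadmium. Cadmium replicate 2 lay above control replicate 3, so the groups overlapped (log2 fold change -0.27, SE 0.12, unadjusted p = 0.0437, edgeR adjusted p = 0.382). Of its 8 circles hsa_circ_0001346 (exons 3 to 9 of 11, with the start codon) held 59.2% of the reads, at 58.5% ± 1.05 in the controls and 60.1% ± 2.07 with cadmium (mean ± SD of 3 libraries). The log2 fold change of that circle, -0.24, was -0.41 without cadmium replicate 2 and -0.16 without cadmium replicate 3.

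RNF149, a membrane-bound RING protein, was the higher host of the family. It had 159, 149 and 204 CPM in controls and 216, 276 and 345 CPM with cadmium, with no overlap (log2 fold change 0.72, SE 0.26, unadjusted p = 0.0146, edgeR adjusted p = 0.272). RNF41, a ligase of the receptor ERBB3, had 56.2, 74.4 and 63.7 CPM in controls and 92.7, 130 and 84.7 CPM with cadmium, with no overlap (log2 fold change 0.67, edgeR adjusted p = 0.506). RNF138, a ligase in DNA double-strand break repair, had 604, 945 and 631 CPM in controls and 1082, 1156 and 645 CPM with cadmium, and its groups overlapped (log2 fold change 0.41, edgeR adjusted p = 0.484). The RNF138 value was 0.25 without cadmium replicate 2, 0.27 without control replicate 1, 0.63 without control replicate 2 and 0.64 without cadmium replicate 3, and 0.10 with the junction to non-junction covariate.

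The largest positive value of a named circle was that of novel_circ_0004419 from RNF34, exons 4 to 6 of 7 (chr12:121420242-121423517). It had 14.6, 23.6 and 0 CPM in controls and 40.1, 70.8 and 61.1 CPM with cadmium, from 29 reads in all (log2 fold change 2.13, SE 0.87, unadjusted p = 0.0273, edgeR adjusted p = 0.524; 1.38 with the covariate). This circle met the listing rule, above 0 in every library of a group, with cadmium alone, which favours a large positive value. All RNF34 circles together had 84.3, 112 and 102 CPM in controls and 116, 84.2 and 137 CPM with cadmium. These sums overlapped (log2 fold change 0.20, edgeR adjusted p = 0.83). The leading RNF34 circle, hsa_circ_0004513, took 55.6%, 46.7% and 100% of the gene's reads in controls and 40%, 0% and 42.9% with cadmium. RNF145 (log2 fold change -0.38) and RNF169 (-0.53), the latter a protein of the DNA break response, were the other lower hosts of the family.

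UBR proteins mostly recognise degradation signals at the start of proteins, and the 5 hosts gave 25 circRNAs. Of 5 tested, 1 had a positive and 4 negative values (median -0.10), with 0 at unadjusted p under 0.05. UBR4 was the positive member, with 93.6, 74.4 and 121 CPM in controls and 92.7, 214 and 182 CPM with cadmium (log2 fold change 0.75, SE 0.36, edgeR adjusted p = 0.422).

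Cullin hosts were CUL1, CUL2, CUL3 and CUL5, with 12 circRNAs. Of 4 tested, 1 had a positive and 3 negative values (median -0.21), with 0 at unadjusted p under 0.05. Together they took 0.0997%, 0.103% and 0.0937% of junction reads in controls and 0.0826%, 0.0884% and 0.0824% with cadmium, with no overlap.

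CUL2, the scaffold used by VHL, had 403, 335 and 331 CPM in controls and 270.5, 245 and 287 CPM with cadmium, with no overlap (log2 fold change -0.42, SE 0.20, edgeR adjusted p = 0.422). CUL3, the scaffold of KLHL proteins, had 487, 573 and 478 CPM in controls and 440.5, 505 and 358 CPM with cadmium, which overlapped (log2 fold change -0.24). CUL1, the scaffold of F-box proteins, had 46.8, 44.7 and 57.3 CPM in controls and 61.8, 76.6 and 84.7 CPM with cadmium, so the least abundant cullin host was higher in each cadmium library (log2 fold change 0.58, SE 0.44, edgeR adjusted p = 0.624).

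F-box proteins are the substrate receptors of CUL1 ligases, and 19 hosts gave 46 circRNAs. Of 17 tested, 7 had positive and 10 negative values (median -0.02), with 0 higher and 3 lower at unadjusted p under 0.05. FBXW7, the receptor for cyclin E and MYC, gave 1 circle, hsa_circ_0001451 of exons 3 to 4 of 14 (chr4:152411303-152412529), which held the annotated start codon and was the most abundant of all member circles.

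The FBXW7 host level was 2589, 2813 and 2599 CPM in controls and 2844, 3185 and 1988 CPM with cadmium. Cadmium replicates held both the highest and the lowest value of the 6, and the log2 fold change was 0.00 (SE 0.15, edgeR adjusted p = 0.995). The weighted junction share of this circle was 95.9% to 98.7% in all libraries, so few other reads were counted at its locus.

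FBXL17, which removes wrongly paired BTB proteins, had 655, 536 and 529 CPM in controls and 471, 444 and 313 CPM with cadmium (log2 fold change -0.50, SE 0.19, unadjusted p = 0.0214, edgeR adjusted p = 0.311). FBXO7, a gene of inherited parkinsonism, had 693, 759 and 669 CPM in controls and 595, 566 and 443 CPM with cadmium (log2 fold change -0.40, SE 0.16, edgeR adjusted p = 0.333). FBXL7 had 197, 223 and 229 CPM in controls and 178, 84.2 and 124 CPM with cadmium (log2 fold change -0.74, SE 0.30, edgeR adjusted p = 0.331). Of all FBXL7 reads, 89.4% lay on a single intronic circle. In these 3 hosts every cadmium library lay below every control library, which was a condition of naming them (background 10.0% of all hosts tested).

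FBXW4 and FBXO4 had positive values. FBXW4 had 969, 759 and 975 CPM in controls and 966, 1041 and 1225 CPM with cadmium, with overlap (log2 fold change 0.25, edgeR adjusted p = 0.53). Without control replicate 2 or without cadmium replicate 3 its value was 0.15, and with the covariate it was 0.47. FBXO4, a low host, had 42.1, 44.7 and 31.8 CPM in controls and 77.3, 45.9 and 97.8 CPM with cadmium, with no overlap (log2 fold change 0.90, SE 0.49, edgeR adjusted p = 0.489).

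KLHL proteins are substrate receptors of CUL3, and 7 hosts gave 15 circRNAs. Of 6 tested, 3 had positive and 3 negative values (median -0.04), with 0 at unadjusted p under 0.05. KLHL8 was the most abundant, with 838, 796 and 675 CPM in controls and 966, 1003 and 697 CPM with cadmium, which overlapped (log2 fold change 0.20). KLHL3, the receptor for WNK kinases, had 28.1, 0 and 31.8 CPM in controls and 46.4, 53.6 and 52.1 CPM with cadmium (log2 fold change 1.22, SE 0.75, edgeR adjusted p = 0.544). Its groups did not overlap, and control replicate 2 was listed at 0, so its only circle met the listing rule with cadmium alone. Without that library the log2 fold change was 0.75, with the covariate it was 4.57 and with limma 2.39, so its size is not settled by these data.

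USP genes, most of which encode deubiquitinases, were the largest family, with 31 hosts and 112 circRNAs. Of 25 tested, 10 had positive and 15 negative values (median -0.07), with 0 higher and 1 lower at unadjusted p under 0.05. Their summed share averaged 0.708% ± 0.0111 in the controls and 0.699% ± 0.0402 with cadmium (mean ± SD of 3 libraries).

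USP3, which removes ubiquitin from histone H2A, was the lower host. It had 810, 796 and 790 CPM in controls and 549, 773 and 469 CPM with cadmium (log2 fold change -0.43, SE 0.18, unadjusted p = 0.0322, edgeR adjusted p = 0.341). The leading circle of exons 2 to 8, hsa_circ_0002138, had 399, 440.1 and 385 CPM in controls and 249, 322 and 176 CPM with cadmium (log2 fold change -0.72, SE 0.24, unadjusted p = 0.0103, edgeR adjusted p = 0.432).

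The shares that follow rest on the same junction reads of the leading USP3 circle, so they are not separate support for its difference. The leading circle took 47.4%, 52.3% and 46.8% of USP3 reads in controls and 43.7%, 40.6% and 36.1% with cadmium. Its weighted junction share was 71.3%, 67.9% and 74.8% in controls and 55.9%, 60.3% and 51.0% with cadmium. In both, every cadmium library lay below every control library, and neither was tested. Over all circRNAs the weighted junction share was also high in control replicates 1 and 3, at 46.0% and 48.8%.

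USP13 had a minor circle with the most negative value of a named circle, while the gene's sum overlapped between groups. The circle hsa_circ_0068103, exons 2 to 6 of 21 (chr3:179681878-179708957), had 11, 11 and 12 reads in controls and 0, 4 and 0 with cadmium (log2 fold change -2.74, SE 0.86, unadjusted p = 0.00641, edgeR adjusted p = 0.431). The size of this value rests on the listed zeros: without cadmium replicate 2, where both cadmium libraries left are at 0, it was -6.47 and is no bound, and with limma it was -4.41. The circle met the listing rule, above 0 in every library of a group, through the controls alone, which favours a large negative value. All 9 USP13 circles together had 819, 804 and 790 CPM in controls and 866, 651 and 710 CPM with cadmium (log2 fold change -0.12, edgeR adjusted p = 0.777). The circle held 5.33% of USP13 reads, and 57.5% lay on a pair of circles that start at exon 18.

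USP48 was the most abundant USP host, with 838, 581 and 694 CPM in controls and 734, 865 and 1049 CPM with cadmium, which overlapped (log2 fold change 0.32, edgeR adjusted p = 0.493). USP34, a deubiquitinase of the Wnt pathway, had 421, 461 and 299 CPM in controls and 487, 444 and 613 CPM with cadmium, with overlap (log2 fold change 0.39, edgeR adjusted p = 0.466).

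**Figure D4:**
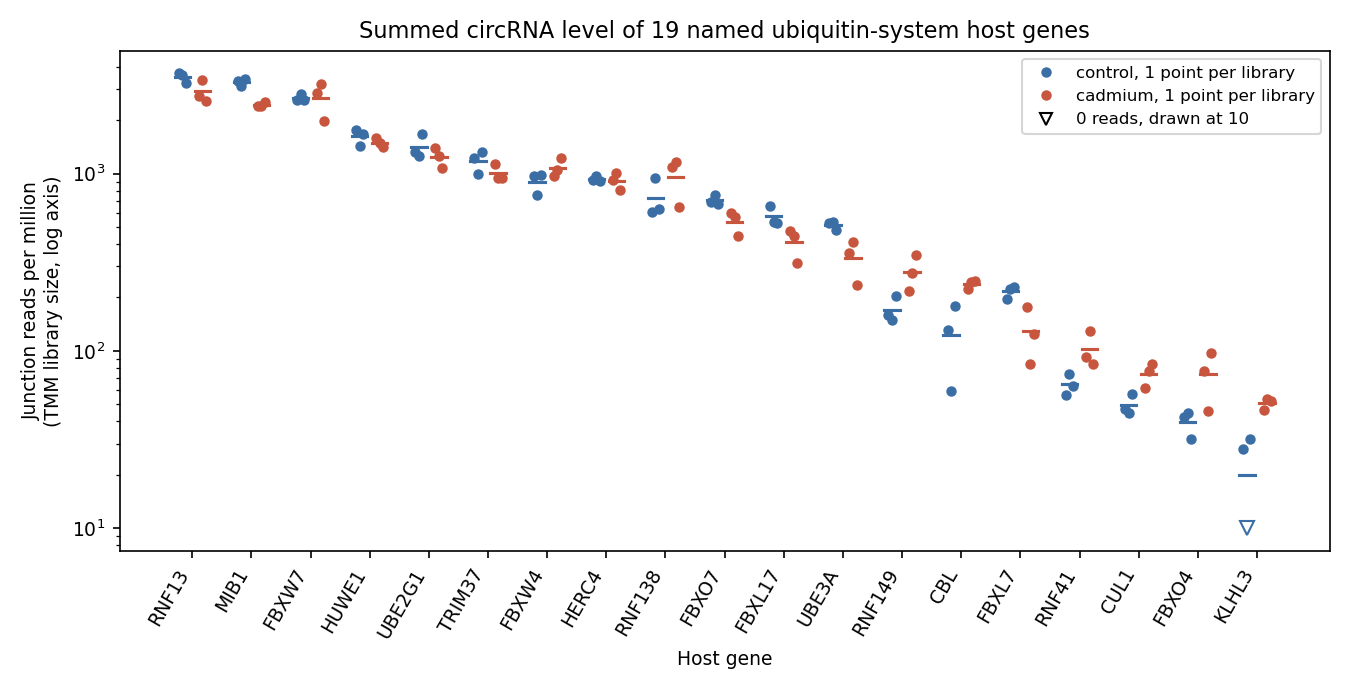
Summed circRNA level (CPM, log axis) of 19 host genes ordered by mean level, 1 point per library, with the group mean as a short line and triangles for 0 reads. The MIB1, UBE3A, FBXL17, FBXL7 and FBXO7 cadmium points all lie below the controls. The CBL, RNF149, FBXO4, RNF41, KLHL3 and CUL1 cadmium points all lie above, and those of the other hosts drawn overlap. Of the separated hosts, all but MIB1, UBE3A and CBL were drawn because their groups did not overlap.

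The rest of the ubiquitin pathway was read from a list of 304 other genes, of which 126 were hosts and 108 were tested. None passed the adjusted threshold in edgeR, and at unadjusted p under 0.05 11 were higher (background 5.92%) and 4 lower (background 6.58%; median log2 fold change 0.06, 59 positive and 49 negative values). The same background holds for the sets that follow, each too small, at 4 to 33 tested hosts, to be read alone. Of 33 tested partners of cullin ligases and of the anaphase-promoting complex, 5 were higher and 1 lower (median 0.22). Of 33 other RING ligases 4 were higher and 2 lower (median 0.03). Of 22 proteasome and p97 genes 1 was higher (median 0.04), of 4 E1 and E4 genes 1 was higher (median 0.06), of 7 other HECT ligases 1 was lower (median 0.16), and of 9 other deubiquitinases 0 were counted (median -0.15).

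RFWD2, the ligase also called COP1, had 819, 1020 and 873 CPM in controls and 626, 406 and 678 CPM with cadmium (log2 fold change -0.65, SE 0.19, unadjusted p = 0.00334, edgeR adjusted p = 0.203). DCAF6, a receptor of CUL4 ligases, was also lower in each cadmium library (log2 fold change -0.64, edgeR adjusted p = 0.311). UHRF1, a ligase of histone H3, had 74.9, 96.8 and 57.3 CPM in controls and 124, 115 and 287 CPM with cadmium (log2 fold change 1.23, SE 0.41, edgeR adjusted p = 0.236).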

How the data were processed

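The deposited counts give, for 6 libraries, the whole number of reads over each back-splice junction. The deposited TPM values are those counts scaled to the library total with no length term, and served in 1 alternative. A comparison deposited by the authors gives the mean normalised signal of each group, the log2 fold change and a p-value with and without adjustment, and was read only where named as theirs. The deposited annotation gives host, position, class, junction reads and other reads of the locus. The circRNA caller and the way the latter were counted are not given in the sources used here. Bowtie2 2.2.8, Bowtie and DESeq 1.10.1 are listed in the submitters' processing notes without saying what each did. The notes also name hg19, but positions follow GRCh38: 97.8% of starts and 98.0% of ends of exonic circRNAs with 1 host lie on GENCODE 29 exon bounds, counted from 1. RNase R can act unevenly between libraries, so levels are relative to the other circRNAs of a library. Each listed circRNA is above 0 in all 3 libraries of a group, so rarer ones are not analysed here.

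Counts, and counts summed per host gene for the circRNAs with 1 host, were tested on the whole tables by edgeR 4.0.16 (R 4.3.3), using its quasi-likelihood test (TMM, robust, filterByExpr with minimum count 5 and minimum total 15, Benjamini-Hochberg adjusted p under 0.05). This left 6182 circRNAs and 3008 hosts. The SE was worked back as the absolute log2 fold change divided by the square root of F. Alternatives were DESeq2 1.42.0, limma 3.58.1 on log2(TPM + 1), RLE factors, unscaled library totals, no filter or a minimum count of 10, a block for the replicate number, the library's junction to non-junction ratio as a covariate, removal of circRNAs listed at 0 in a library whose group otherwise implied at least 10 reads, and leaving out each library in turn. For the weighted junction share and leading circle shares, leaving out libraries was added after seeing the data. The scripts were tested on simulated counts with 1 common spread. There a log2 change of 1 was recovered at the adjusted threshold for 7 of 90 circRNAs and 49 of 97 hosts. For a log2 change of 2 it was 66 of 84 circRNAs and 88 of 90 hosts. A lack of calls thus does not show a lack of smaller changes. Reads carry no molecular identifiers, so they are not independent molecules, and a median of 7 reads per member circRNA and library limits precision.

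Members, lists and rules were chosen with earlier results of these data known. Named by rule were TRIM37, UBE3A, MIB1 and CBL, the 10 hosts with the highest mean level, the 6 higher and 6 lower hosts with the smallest p among those not overlapping between groups, the 4 hosts with most circRNAs, the 6 circles with the highest level, the 4 higher and 4 lower circles by the same rule, the leading circles of the 4 genes, and 2 higher and 2 lower other ubiquitin genes. Other names were chosen after their values were seen. Values of some members that the rule names are not reported here.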

Additional observations from a re-analysis of the deposited data

How the results depend on the processing

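No member circRNA or host passed the adjusted threshold under any of the 15 alternatives run, and leaving out libraries in turn gave 0 to 0 calls for both. Over all hosts 1 higher and 6 lower passed, against 2 and 9 with DESeq2, 0 and 4 with limma, 0 and 3 without control replicate 1 and 1 and 12 without cadmium replicate 3. Over all circRNAs 0 and 5 passed, against 2 and 1 with the covariate, 0 and 0 without control replicate 1 and 7 and 6 without control replicate 2. Among 32 named log2 fold changes, 27 kept their sign in every alternative that gave a value. At unadjusted p under 0.05 the count of 12 member hosts (2 higher, 10 lower) was 21 with no filter on low counts (2 higher, 19 lower, from 135 tested), and ran from 7 without control replicate 1 to 16 without control replicate 3. With the junction to non-junction covariate, a fit that sets cadmium mainly against control replicate 2, it was 17 (11 higher, 6 lower). Signs turned where values lay near 0: the FBXW7 host (0.00) was -0.0014 with no filter, -0.0215 with the replicate block, -0.0463 with the covariate, -0.0030 without circRNAs at doubtful zeros, -0.0130 with limma and -0.151 to 0.177 over libraries left out. Its circle hsa_circ_0001451 was 0.0098 on library totals and -0.174 to 0.148 over libraries left out. With the covariate the HUWE1 host was 0.0221 and hsa_circ_0007168 of HECTD2 -0.114. Over libraries left out, HERC4 ran from -0.113 to 0.0549 and hsa_circ_0007168 from -0.114 to 0.257. The cause was not tested. The difference in member share ran from -0.291 to -0.101 percentage points, and in weighted junction share from -12.3 to -3.64, the smallest without control replicate 3 and the largest without control replicate 2. The leading circle's share differed by 0.231 to 14.2 points for CBL, -4.82 to -0.602 for MIB1, 3.69 to 6.31 for TRIM37 and -7.59 to 0.00282 for UBE3A. Same-numbered libraries correlated at 0.00605, 0.00308 and 0.0751 in their deviations over hosts, and differently numbered ones at -0.0433 to 0.0388. Deviations from means of 3 libraries cannot settle whether replicate numbers pair the libraries. With the replicate block 15 member hosts had an unadjusted p under 0.05 (4 higher, 11 lower) and 0 passed. Low counts limit single circles: 146 of 427 members were not tested.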

Other observations

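Some member circles were listed in the libraries of 1 group only. Read in all 3 control libraries and in 0 cadmium libraries were 10 members (2.34% of 427, against 2.15% of all circRNAs). They came from HERC1, HERC3, HERC4, TRIM8, TRIM39, UBE2E3, UBE2J1, UBE3A, UBR2 and USP40, with 2 to 8 reads a library. Read in all 3 cadmium libraries and in 0 controls was 1 member (0.234%, against 0.943% of all circRNAs), novel_circ_0028055 of the deubiquitinase gene USP4, with 4, 5 and 3 reads. Controls had more reads in all, and which circRNAs are listed was set at full depth.

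A listed 0 was at times at odds with the other libraries. In 5 members a library stood at 0 where the rest of its group implied 10 or more reads. The circle hsa_circ_0007501 of RNF216, a RING ligase, had 30, 0 and 12 reads in controls and 12, 22 and 13 with cadmium. Others were hsa_circ_0008984 of UBR1 and hsa_circ_0035216 of USP8, both at 0 in cadmium replicate 3, and hsa_circ_0028595 of RNFT2, at 0 in control replicate 3.

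Intronic circles were few among ubiquitin genes, 14 of 427. The most abundant was novel_circ_0031085 of FBXL7, with 144 reads in all, and its cadmium libraries lay below its controls (log2 fold change -0.86, unadjusted p = 0.015, edgeR adjusted p = 0.447). That circle held 89.4% of FBXL7 reads, so its difference is not separate from that of the FBXL7 host given above. The next intronic circle, hsa_circ_0003978 of USP6NL, had 118 reads (log2 fold change 0.05, edgeR adjusted p = 0.979).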
